A study of Mus musculus with 20 samples.

Results

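The semaphorins, plexins and neuropilins are 31 of the 22089 mouse protein-coding genes that carry a unique symbol in the NCBIM37 (mm9) annotation, taken as every symbol that begins with Sema and a number or with Plxn, plus Nrp1 and Nrp2. They comprise 20 semaphorins, 9 plexins and 2 neuropilins. Each gene was read as a window that runs from 1 kb before the annotated gene to 1 kb after it, and the 31 windows add up to 3.96 Mb. The measure is the percentage of the bases of a window that lie under peaks of 5-formylcytosine (5fC), an oxidised form of 5-methylcytosine that thymine DNA glycosylase (TDG) removes from DNA. To set libraries of different peak number side by side, that percentage was also divided by the percentage of the ungapped genome that lies under peaks in the same library, which is called the fold over the genome below.

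Semaphorins are guidance cues, and plexins are their receptors. The class 3 semaphorins are secreted and mostly reach plexins of the A family through a neuropilin, which binds the ligand but has little signalling capacity of its own, whereas Sema3e can bind Plxnd1 directly. Classes 4, 5 and 6 span the membrane and Sema7a is held by a lipid anchor, and these mostly bind plexins without a neuropilin. The cytoplasmic part of a plexin acts on small GTPases, and the pathway is best known for steering growing axons, migrating neural crest cells and sprouting vessels, and for the development of the cardiac outflow tract.

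The study pulled 5fC-bearing DNA fragments down from hindbrain, heart, liver and the remaining carcass of mid-gestation mouse embryos that were WT or Tdg null. The null allele cannot make the catalytic domain of TDG, because a neomycin cassette was put in place of that part of the gene. Hindbrain was taken from 4 WT and 4 null embryos, with 1 pair in each of the 4 litters called A, O, Q and Z. Heart, carcass and liver came from 2 WT and 2 null embryos that the labels put in litter pairs a and b (litters a and b below), so that these 3 tissues share their embryos. The null liver of litter b, which the study set aside for poor quality, held 228 peaks and was left out here, and its single peak in these windows lay in Sema3a. The 19 libraries used therefore comprise 10 WT and 9 null libraries, each from a separate embryo within its tissue, and carcass is a mixture of many tissues.

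Null libraries held between 101344 and 254319 peaks and WT libraries between 1563 and 42013. The files give intervals only, so neither the depth nor the height of a peak is known, and a gene without a peak is listed at 0, which does not show that 5fC is absent there. Over each list of tissue markers the peaks mark DNA, not expression, and so check the labels only in part. The heart markers (Gata4, Nkx2-5, Tbx5, Tbx20, Hand2, Myh6, Tnnt2 and Ryr2) stood at 3.01 to 3.87 fold over the genome in null heart against 0.665 to 0.794 in null hindbrain and 0.514 to 0.597 in null carcass, and at 2.10 in the null liver library, whereas of the 8 hindbrain markers 6 had no peak in any null hindbrain library, and that list stood at 0.629 to 1.86 there against 1.13 to 1.47 in null carcass. The 7 hepatocyte markers stood at 2.82 in the null liver and 2.50 to 2.68 in null heart, the 5 erythroid markers at 0.663 and 0.993 to 1.69, and the 5 endothelial markers at 2.69 and 3.03 to 3.4.

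A set of 5 stretches of the reference genome from these windows show what a 5fC peak covers here, printed before the values because base composition recurs through them. They are the middle 300 bases of stretches that rank among the 4 longest shared or the 2 longest restricted to a tissue. They are read from the forward strand of NCBIM37 in lower case, with each CpG, the dinucleotide in which most 5fC lies, in capitals. The stretches in Plxna4 (intron 3) and Plxnd1 (across an exon and intron near the end of the gene) lay under peaks in all 9 null libraries. The next 3, in Sema6d (intron 2), Plxnd1 (intron 1) and Nrp2 (intron 15), lay under peaks in every null library of hindbrain, heart or carcass respectively and in no null library of another tissue. Introns are numbered from the start of the gene over the merged exons of its transcripts. The 5 pieces hold 7, 11, 7, 4 and 3 CpGs in that order.
Plxna4 under all null libraries, chr6:32327251-32327550: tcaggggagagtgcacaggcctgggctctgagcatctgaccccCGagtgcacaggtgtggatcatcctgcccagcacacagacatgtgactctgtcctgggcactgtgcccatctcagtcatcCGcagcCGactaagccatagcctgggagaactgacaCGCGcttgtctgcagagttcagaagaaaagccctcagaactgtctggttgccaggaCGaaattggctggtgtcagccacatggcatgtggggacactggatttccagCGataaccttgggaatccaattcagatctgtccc
Plxnd1 under all null libraries, chr6:115907401-115907700: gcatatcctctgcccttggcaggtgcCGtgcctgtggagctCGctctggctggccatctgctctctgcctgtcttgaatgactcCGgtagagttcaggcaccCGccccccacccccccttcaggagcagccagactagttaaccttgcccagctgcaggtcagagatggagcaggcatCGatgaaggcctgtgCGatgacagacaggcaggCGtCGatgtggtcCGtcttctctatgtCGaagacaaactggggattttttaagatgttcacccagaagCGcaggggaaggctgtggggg
Sema6d in null hindbrain only, chr2:123993001-123993300: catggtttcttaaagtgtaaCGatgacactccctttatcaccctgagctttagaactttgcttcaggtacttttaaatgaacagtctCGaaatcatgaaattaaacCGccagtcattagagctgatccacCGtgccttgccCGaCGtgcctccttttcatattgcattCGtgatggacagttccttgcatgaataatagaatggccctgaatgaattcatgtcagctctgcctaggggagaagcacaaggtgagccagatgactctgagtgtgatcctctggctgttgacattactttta
Plxnd1 in null heart only, chr6:115939451-115939750: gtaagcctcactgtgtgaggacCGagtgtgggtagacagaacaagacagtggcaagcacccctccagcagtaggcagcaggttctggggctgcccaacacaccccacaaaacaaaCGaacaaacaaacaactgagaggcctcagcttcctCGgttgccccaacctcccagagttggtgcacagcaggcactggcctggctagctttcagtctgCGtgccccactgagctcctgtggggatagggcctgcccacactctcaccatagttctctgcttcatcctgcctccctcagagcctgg
Nrp2 in null carcass only, chr1:62838151-62838450: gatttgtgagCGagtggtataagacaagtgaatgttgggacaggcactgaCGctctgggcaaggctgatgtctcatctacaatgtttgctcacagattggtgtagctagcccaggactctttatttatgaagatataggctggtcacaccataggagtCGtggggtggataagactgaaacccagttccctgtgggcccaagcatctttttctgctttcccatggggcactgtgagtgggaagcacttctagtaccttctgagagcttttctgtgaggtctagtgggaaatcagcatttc

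The first question was how much 5fC these genes carry when TDG is missing. Member windows lay under null peaks over 4.91% to 6.81% of their bases in hindbrain, 15.7% and 6.76% in heart, 11.9% and 16.0% in carcass and 6.13% in the 1 liver library. That is 1.80 to 2.21 fold over the genome in the 9 null libraries, against 1.30 to 1.62 for all protein-coding windows. Between 24 and 30 of the 31 members held a peak in a null library, and between 2 and 20 in a WT library. WT coverage of the member windows ran from 0.0177% in liver of litter b to 1.78% in carcass of litter a.

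**Figure D1:**
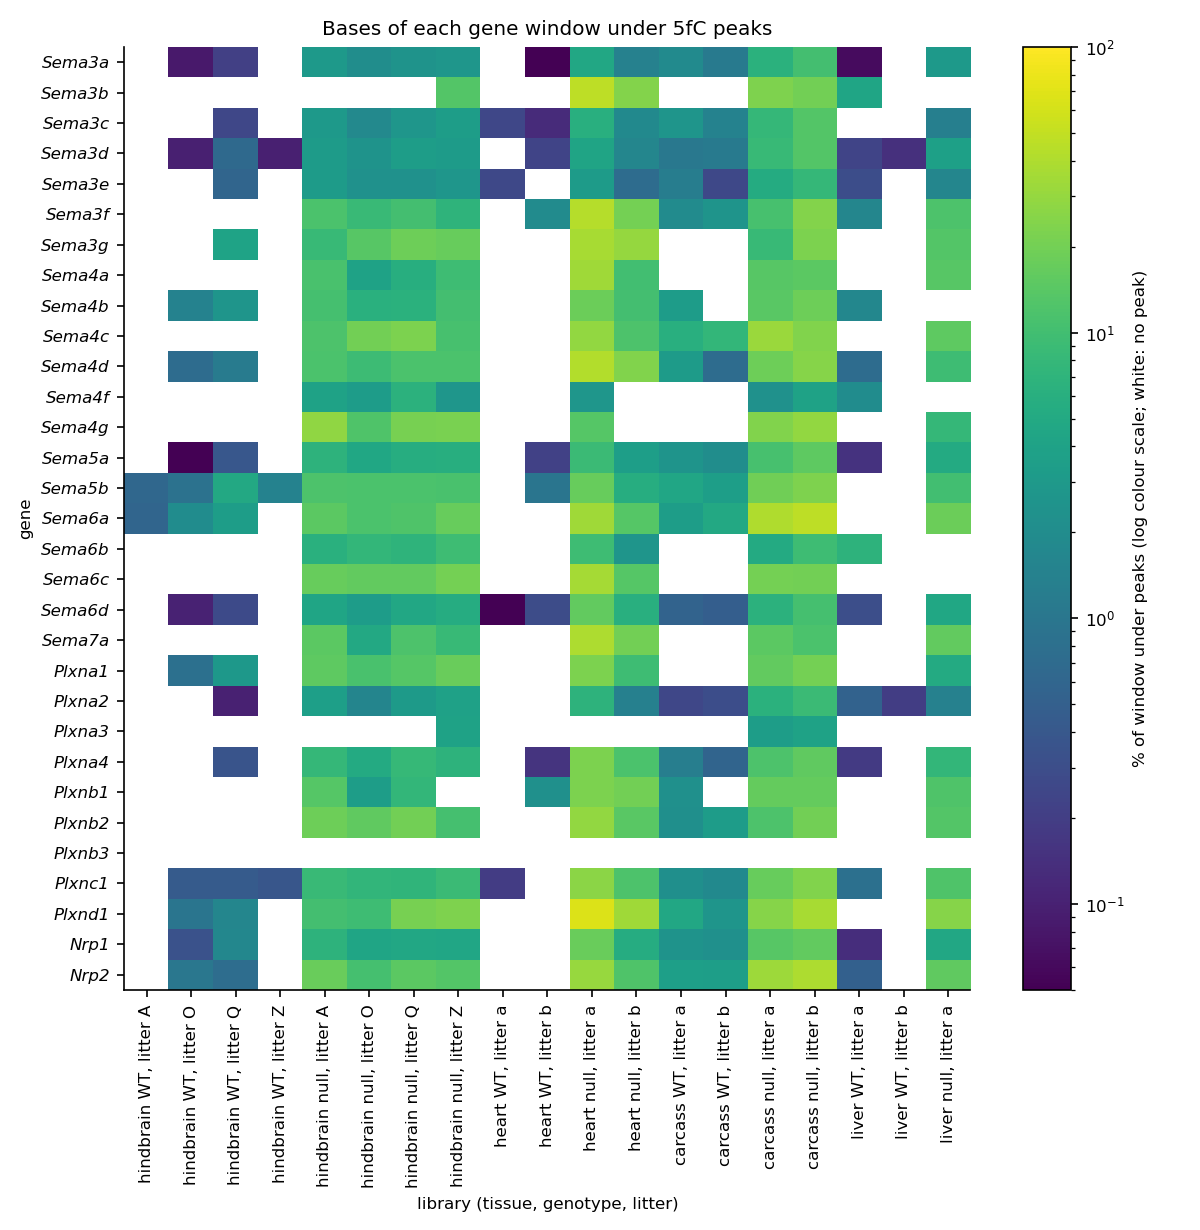
Percentage of each of the 31 gene windows (rows) under 5fC peaks in each of the 19 libraries (columns, by tissue, genotype and litter), on a log colour scale, with white for no peak. The null columns are filled for 24 to 30 of the 31 genes and the WT columns for 2 to 20.

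In null hindbrain the 6 members with the highest mean coverage were Sema4g, Sema6c, Plxnb2, Sema4c, Plxnd1 and Sema3g. Sema4g, a transmembrane semaphorin, was covered over 28.3%, 12.3%, 20.9% and 21.5% of its window in the order A, O, Q, Z and was listed at 0 in all 4 WT hindbrain libraries. Sema6c, a ligand of class 6, was covered over 17.3%, 16.1%, 16.1% and 20.6%, again with no WT hindbrain peak. Both windows are short, at 16.3 and 15.6 kb, so that 2 or 3 peaks per library make up these percentages. Plxnb2, a receptor for class 4 semaphorins that is needed for closure of the neural tube, was covered over 18.7%, 15.8%, 19.8% and 10.6%. Its ligand Sema4c was covered over 12.0%, 19.6%, 22.2% and 11.1%. Neither held a WT hindbrain peak. Plxnd1, the receptor of vessel endothelium, split by litter, at 10.4% and 9.48% in A and O but 20.9% and 23.2% in Q and Z, and 2 of the 4 WT hindbrain libraries held a peak there (0.948% and 1.66%). Sema3g, a secreted semaphorin, was covered over 8.28%, 13.8%, 18.6% and 17.3%, and 1 WT hindbrain library, that of litter Q, reached 4.14%.

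The 3 lowest members in null hindbrain were Sema3a, Plxna3 and Plxnb3. Sema3a, the founding axon repellent of the class, lay under peaks over 3.07%, 2.09%, 2.51% and 2.74% of a 479 kb window. Plxna3 was listed at 0 in 3 of the 4 libraries and at 3.97% in litter Z. Plxnb3 held no peak in any of the 19 libraries. Plxna3 and Plxnb3 are the members on chromosome X, and in the 9 null libraries chromosome X was covered 0.0610 to 0.111 times as densely as the autosomes. The part of that in the low values of both genes was not tested.

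All 4 null hindbrain libraries lay above all 4 WT hindbrain libraries in 27 of 31 members, against 46.4% of all 22089 genes. The exceptions were Plxna3, Plxnb3, Sema3b, which held a peak only in null litter Z, and Plxnb1, the receptor of Sema4d, which held none in null litter Z. The count was 27 of 31 in heart (55.7% of all genes), 30 of 31 in carcass (51.7%) and 24 of 31 in liver, where 1 null library was set against 2 (47.0%). In heart the genes that overlapped were Sema4f, Sema4g, Plxna3 and Plxnb3, and in carcass Plxnb3. The shares over all genes include genes without a null peak, which cannot meet this rule. In single null hindbrain libraries 55.2% to 61.2% of all genes held a peak, against 28 or 29 of the 31 members. Nothing is therefore read from these counts about the family.

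Each genotype difference was then fitted with limma on log2(percentage + 0.5) over all genes with a peak in at least 2 of the libraries compared. In hindbrain 28 members passed that filter and 28 were called higher in null than in WT at a Benjamini-Hochberg adjusted p of 0.05, against 87.0% of the 13832 genes tested. In heart 26 of 27 tested members were called higher (background 91.0%), Sema3e being the exception with a log2 difference of 1.80 ± 0.70 (SE) and an adjusted p of 0.085 in limma. In carcass 28 of 30 were called higher (background 76.7%). The exceptions there were Plxnb1 and Sema4b, each with no peak in the WT carcass of litter b and a peak in that of litter a. Their log2 differences were 3.88 ± 1.06 and 3.6 ± 1.28 (SE), with adjusted p-values of 0.0533 and 0.0894 in limma. A member passes the filter mostly through its null libraries, so nothing is read from these counts about the family. No member was called lower in null hindbrain, heart or carcass, against 0.0289%, 0.246% and 0.870% of the genes tested. On the fold over the genome, 16 of 28 members were called higher in hindbrain (62.3% of all genes tested), 16 of 27 in heart (73.9%) and 12 of 30 in carcass (41.9%). None was called lower, against 0.896%, 1.82% and 7.19% of all genes tested. Against the percentage, the sign turned in 1 of the 28 members called in hindbrain (Sema5b), 2 of 26 in heart (Sema3c and Sema3d) and 8 of 28 in carcass (Nrp1, Plxnb2, Sema3a, Sema3c, Sema3f, Sema4c, Sema5a and Sema5b).

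By the size of the fitted difference, heart was led by Plxnd1, Sema3b, Sema3g, Sema4d, Sema7a, Sema6c, Sema6a and Plxnb2, each listed at 0 in both WT heart libraries. Plxnd1 reached 68% and 33.8% in null heart and Sema3b, a secreted semaphorin, 46.4% and 24.3%. Sema3g stood at 36.8% and 29.9% and Sema4d at 41.3% and 23.8%. In each of the 4 the null heart of litter a lay above that of litter b, as did the share of the whole genome under peaks (8.09% and 3.64%). Sema7a stood at 38.8% and 19.8% in null heart and held no WT peak in any tissue. In carcass Sema4a, a class 4 semaphorin of immune cells and vessels, likewise held no WT peak and stood at 14.0% and 14.7% in the null libraries. Sema4g stood at 23.4% and 29.5% there, Sema3b at 22.9% and 19.9% and Plxna1 at 15.9% and 20.7%, all without a WT carcass peak. These genes entered the fit through their null libraries alone, so no p is given for them.

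The size of the difference can be given where WT libraries held peaks, and 4 such members are described here, chosen after their values were seen. Sema5b, a transmembrane semaphorin with thrombospondin repeats, stood at 0.637%, 0.876%, 4.86% and 1.43% in WT hindbrain and at 11.9%, 11.6%, 11.7% and 11.3% in null hindbrain, a log2 difference of 2.60 ± 0.47 (limma adjusted p = 0.00114). The null libraries differed little and did not overlap the WT libraries, of which litter Q was the highest. On the fold over the genome the order turned, with WT hindbrain at 16.7, 4.96, 10.4 and 41.0 and null hindbrain at 3.32, 4.35, 3.32 and 3.08, so that every WT library lay above every null one, and the log2 difference was -1.91 ± 0.75 (limma adjusted p = 0.0565). Nrp1, the neuropilin that Sema3a uses and that also binds vascular endothelial growth factor, stood at 2.49% and 2.29% in WT carcass and at 14.1% and 16.0% in null carcass, a log2 difference of 2.42 ± 0.13 (limma adjusted p = 0.00235). Its fold over the genome was 2.66 and 2.86 in WT carcass against 2.61 and 2.11 in null carcass, and no difference was called on that scale (limma adjusted p = 0.458). Nrp2, the neuropilin preferred by Sema3f, stood at 3.66% and 3.58% in WT carcass and at 32.7% and 38.8% in null carcass, a log2 difference of 3.13 ± 0.14 (limma adjusted p = 0.00157). Its fold over the genome was 3.90 and 4.46 in WT against 6.07 and 5.14 in null carcass, where the difference of 0.40 ± 0.16 was not called (limma adjusted p = 0.144). In Sema6a, a ligand of plexins A2 and A4, WT carcass stood at 3.4% and 4.95% and null carcass at 40.1% and 47.0%, the highest carcass level of any member, with a log2 difference of 3.25 ± 0.24 (limma adjusted p = 0.00415). Its fold over the genome was 3.62 and 6.18 in WT against 7.44 and 6.22 in null carcass, a difference of 0.50 ± 0.33 that was not called (limma adjusted p = 0.316).

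With 1 null library removed, the members tested fell to 20 in carcass and 11 in heart. Then 0 carcass members were called without either null library, and in heart 0 without litter a, each against 0.00% of all genes tested, and 8 without litter b, against 61.8%. In liver 0 of 12 tested members and 0.00% of 4229 tested genes were called higher by limma with its single null library. The fit over 19 libraries called 11 members higher, against 71.3% of those genes. Without the WT liver of litter b, 10 of the 12 were called, against 47.6% of all genes tested, but that sets 1 library against 1 and takes the spread from the other tissues.

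The second question was how the members compare with other genes of their length, since a longer window has more room for peaks. Each member was placed among the 200 genes nearest to it in window length. The median percentile over the 31 members was 84.0 in null hindbrain (79.0 to 87.5 over the single libraries), 77.5 in null heart (75 and 81.5), 87.0 in null carcass (87.0 and 87.5) and 69.5 in the null liver library. In WT groups it was 44.0 in hindbrain, 46.8 in heart, 51.0 in carcass and 42.8 in liver, but there most short members and most of their neighbours are tied at 0, which holds the median near the middle. In WT carcass the member windows together stood at 1.89 and 1.64 fold over the genome, against 1.18 and 1.17 for all genes. In WT hindbrain they stood at 1.06, 1.39, 1.57 and 1.88 (all genes 1.09, 1.26, 1.21 and 1.04), in WT heart at 0.285 and 1.41 (0.933 and 1.20) and in WT liver at 0.983 and 0.468 (1.29 and 1.18), so the members were above all genes in 6 of the 10 WT libraries. In null hindbrain 24 members lay above the middle of their neighbours and 13 above the 90th percentile. Plxnd1 was at the 100.0th percentile in null hindbrain and in null heart, Sema4g at 99.5 and Plxna1 at 99.0 in null hindbrain, and Sema6a at 100.0 and Nrp2 at 99.5 in null carcass. No test goes with these percentiles.

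**Figure D2:**
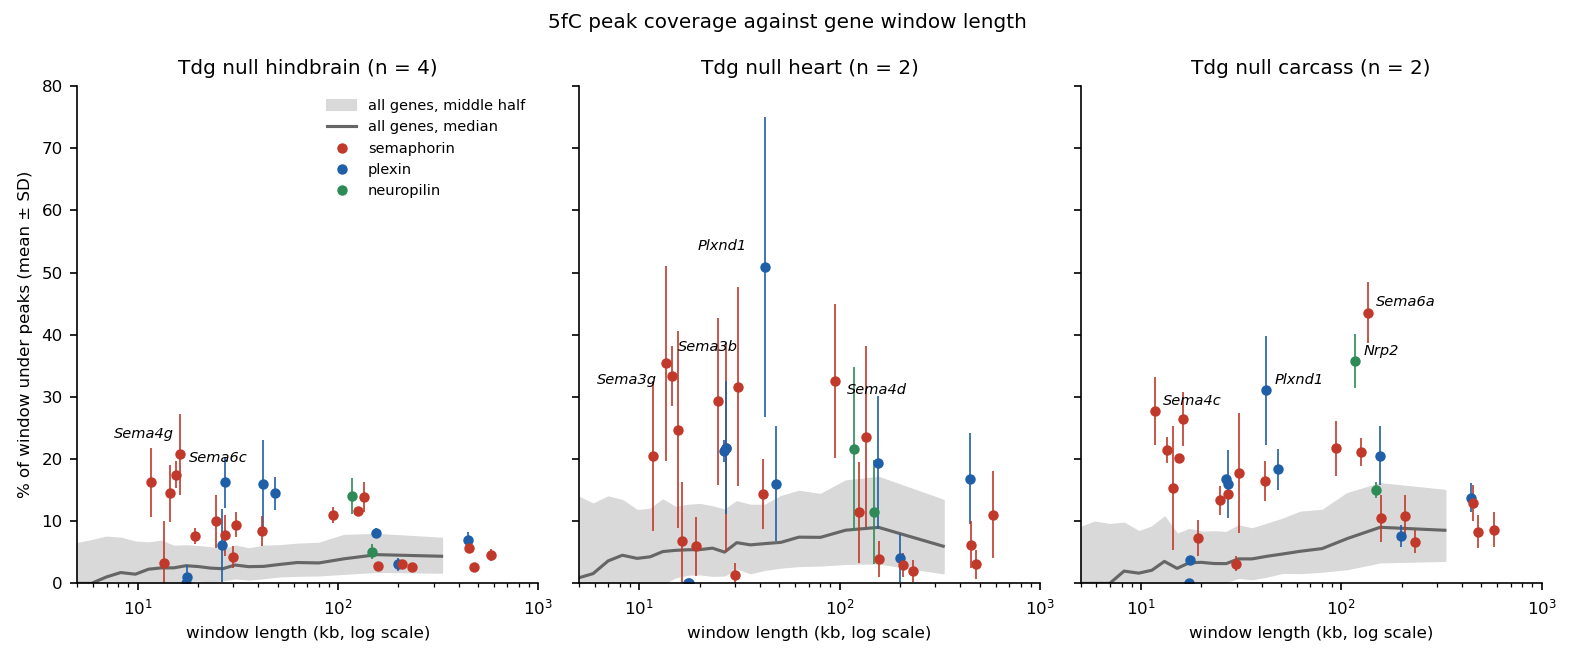
Mean percentage of each gene window under peaks (vertical axis, ± SD) against window length in kb (horizontal axis, log scale) in null hindbrain (4 libraries), null heart (2) and null carcass (2), with semaphorins, plexins and neuropilins as points and the median and interquartile range of all protein-coding genes as line and band. Plxnd1 in heart and Sema6a and Nrp2 in carcass stand far above the band, while in heart the long Sema3d and Sema3e lie low, at the 23.0th and 20.5th percentile of genes of similar length and at 78.0 and 64.0 among genes of similar length and GC content.

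Many of the short members are rich in G and C, so the neighbours were also taken by length and GC content together, a choice made after seeing the data. The median percentile was then 74.0 in null hindbrain, 67.0 in null heart, 73.0 in null carcass and 73.5 in null liver, and 7, 2, 5 and 3 members lay above the 90th percentile. The members above 90 by length alone had numbered 13, 11, 11 and 10.

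The class 3 semaphorins fell into 2 sets that differ in place and make-up. Sema3a, Sema3c, Sema3d and Sema3e lie on chromosome 5 between 12383166 and 17236086, span 158 to 479 kb and are 35.9% to 37.5% GC. Sema3b, Sema3f and Sema3g lie on chromosomes 9 and 14, span 13.6 to 31 kb and are 53.2% to 55.7% GC. The chromosome 5 set stood at 0.812 ± 0.046 fold over the genome in null hindbrain (SD, n = 4), 0.467 ± 0.126 in null heart (n = 2) and 1.34 ± 0.11 in null carcass (n = 2). The other set stood at 2.77 ± 0.35, 5.85 ± 0.89 and 2.73 ± 0.44. In null hindbrain and null heart every library had the first set below and the second above the level of the whole genome. In null hindbrain the chromosome 5 genes lay at the 27.0th to 33.5th percentile of genes of similar length. Among neighbours in length and GC content together they lay at 77.5 to 87.0, with Sema3b at 27.0, Sema3f at 62.5 and Sema3g at 91.0, so the low place of the first set is not kept. In null heart the 4 lay at 20.5 to 34.0 by length alone and at 64.0 to 81.5 by length and GC content.

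The other subfamilies lay above the genome level in every null library. Class 4 stood at 3.03 ± 0.14 fold in null hindbrain, 3.66 ± 0.26 in null heart and 2.81 ± 0.24 in null carcass. Class 5 stood at 2.10 ± 0.19, 1.21 ± 0.16 and 2.28 ± 0.11, and class 6 at 1.95 ± 0.17, 2.23 ± 0.25 and 2.35 ± 0.07. Sema7a, which signals through integrins as well as Plxnc1, stood at 2.90 ± 1.02, 5.12 ± 0.46 and 2.16 ± 0.86. Plexins A stood at 1.85 ± 0.12, 2.21 ± 0.11 and 1.89 ± 0.11, plexins B at 2.55 ± 1.0, 2.99 ± 0.80 and 1.93 ± 0.13, and Plxnc1 at 2.42 ± 0.31, 3.29 ± 0.06 and 3.18 ± 0.02. Plxnd1 stood at 4.67 ± 1.71, 8.84 ± 0.63 and 4.77 ± 0.22, and the neuropilins together at 2.70 ± 0.40, 2.63 ± 0.38 and 3.80 ± 0.49.

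The third question was which members differ between the null tissues. Null hindbrain came from litters A, O, Q and Z, and null heart and carcass from litters a and b. A difference between hindbrain and either of them therefore cannot be told apart from one of embryo or litter. The 9 null libraries were fitted together on log2(fold over the genome + 0.25), so the 3 comparisons share libraries and are given side by side without being set against each other. The median gene was shifted by -0.23 between null hindbrain and null heart, by 0.15 between null hindbrain and null carcass and by 0.39 between null heart and null carcass.

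Against null heart, 8 of 30 tested members were called higher in null hindbrain (10.3% of 16295 genes) and 3 were called lower (19.6%). The higher members were Sema4g, Sema4f, Sema6b, Sema3e, Sema5b, Sema3d, Plxna1 and Sema5a, and the lower ones Sema3f, Sema4d and Plxna4. The median difference over the tested members was 0.23, against -0.23 over all genes tested.

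Sema4g stood at 7.87, 4.61, 5.94 and 5.87 fold over the genome in null hindbrain and at 1.67 and 0 in null heart, a log2 difference of 3.17 ± 0.73 (limma adjusted p = 0.0197). Without the null heart of litter b, the one at 0, that difference was 1.70, without that of litter a it was 4.64, and over all alternatives the highest limma adjusted p was 0.112. Plxna1, a shared receptor of Sema3 and Sema6 ligands, stood at 4.26, 4.26, 3.88 and 4.80 in hindbrain and at 2.79 and 2.62 in heart, a difference of 0.62 ± 0.13 (limma adjusted p = 0.0129). The groups do not overlap in either gene on this scale, which adds nothing to the calls that picked them. On the percentage without scaling the Plxna1 difference was -0.037. Sema5b stood at 3.32, 4.35, 3.32 and 3.08 against 2.13 and 1.55, a difference of 0.85 ± 0.19 (limma adjusted p = 0.0182). Sema5a, its relative with the same repeats, stood at 1.89, 1.76, 1.60 and 1.59 against 1.10 and 0.977, a difference of 0.60 ± 0.14 (limma adjusted p = 0.0193). Both class 5 semaphorins, picked by the same calls, were thus higher in every hindbrain library than in either heart library. Sema6b differed by 1.10 ± 0.27 and Sema4f by 1.92 ± 0.45, and the peaks per library of both genes lay within 0 to 4.

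Sema3d and Sema3e were higher in null hindbrain than in null heart by 0.67 ± 0.17 and 0.95 ± 0.25 on the log2 scale (limma adjusted p = 0.0282 and 0.0302), with Sema3d at 0.910, 0.936, 0.970 and 0.892 fold against 0.529 and 0.450. Over the 200 tested genes nearest in GC content the median difference was 0.15 and 0.06 for the same comparison, and the part of GC content in either difference was not tested. Sema3a and Sema3c, their neighbours on the chromosome, differed by 0.48 ± 0.21 and 0.28 ± 0.23 and did not pass (limma adjusted p = 0.124 and 0.382).

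In the opposite direction, Sema4d, the ligand of plexins B, stood at 5.10 and 6.54 fold in null heart and at 3.24, 3.4, 3.34 and 3.20 in null hindbrain, a log2 difference of -0.77 ± 0.13 for hindbrain against heart (limma adjusted p = 0.00733). Sema3f stood at 5.31 and 5.59 in heart and at 3.23, 3.26, 2.93 and 1.94 in hindbrain, a difference of -0.91 ± 0.26 (limma adjusted p = 0.0398). Plxna4 stood at 2.72 and 3.19 against 2.17, 1.97, 2.30 and 1.88, a difference of -0.46 ± 0.14 (limma adjusted p = 0.0469). The groups do not overlap in any of the 3, which adds nothing to the calls that picked them. Plxnd1, with 68% and 33.8% of its 42.2 kb window under peaks in the 2 null hearts, stood at 8.40 and 9.29 fold there against 2.90, 3.54, 5.92 and 6.33 in hindbrain and did not pass (-0.95 ± 0.33, limma adjusted p = 0.0681). Sema3b, at 5.74 and 6.68 fold in heart and at 0, 0, 0 and 3.62 in hindbrain, did not pass either (limma adjusted p = 0.0545).

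With either null heart left out, 1 heart library remained, and no called member changed sign. Over 19 alternative settings, Sema4d was not called in 1 and Sema3e and Plxna4 in 9 each, the fewest and the most. Without 1 hindbrain library the calls higher and lower numbered 7 and 1 for litter A (9.66% and 19.2% of all genes tested). They were 5 and 1 for O (7.94% and 16.4%), 6 and 1 for Q (7.48% and 16.3%) and 6 and 4 for Z (8.18% and 17.0%). On the percentage without scaling 0 were higher and 5 lower in hindbrain, against 3.11% and 24.3% of all genes tested.

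**Figure D3:**
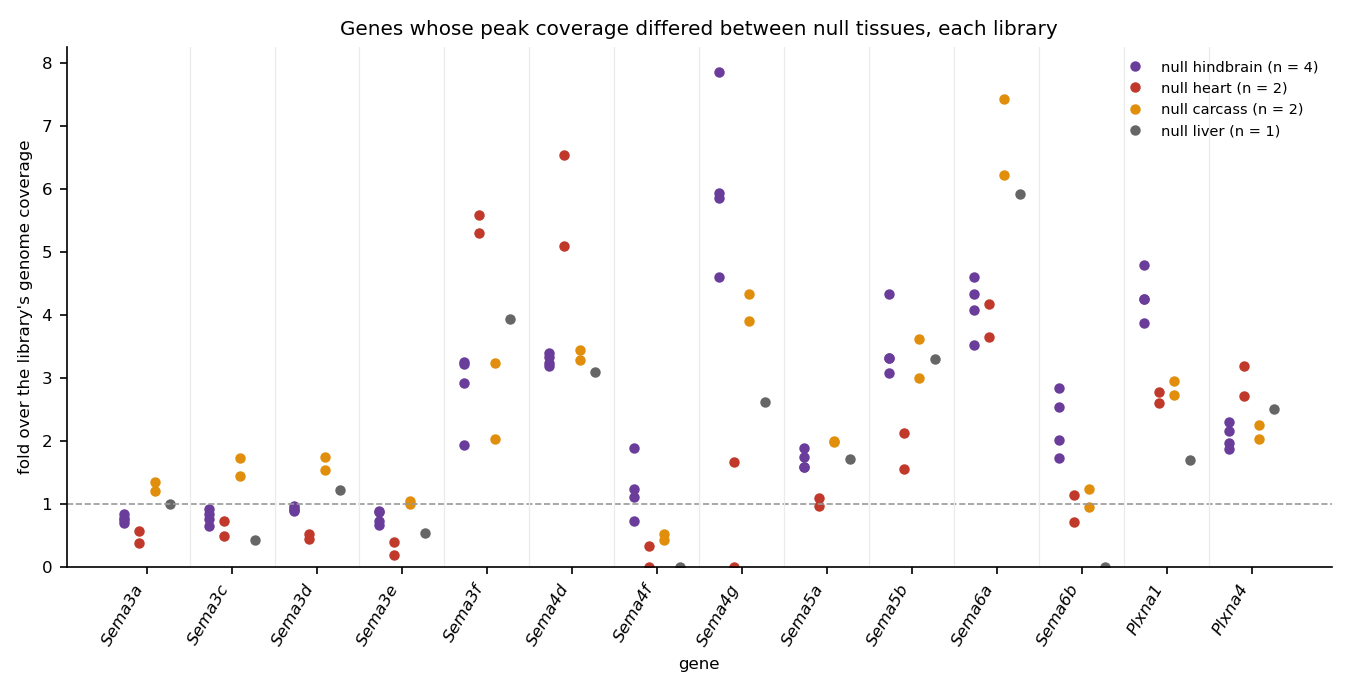
Fold over the genome (vertical axis) in each null library for the 14 genes called different between null hindbrain and null heart or between null heart and null carcass, with the dashed line at the level of the whole genome. Heart points lie lowest in Sema3d, Sema3e, Sema5a and Sema5b among hindbrain, heart and carcass and highest in Sema3f, Sema4d and Plxna4.

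Between null heart and null carcass, 1 of 30 tested members was called higher in heart (19% of 16295 genes) and 7 lower (5.90%). The higher one was Sema4d, with carcass at 3.46 and 3.29 fold and a log2 difference of 0.73 ± 0.15 (limma adjusted p = 0.0168). The lower ones were Sema3d, Sema3e, Sema3c, Sema3a, Sema5a, Sema5b and Sema6a. The 4 chromosome 5 semaphorins thus all lay among them, with log2 differences of -1.36 ± 0.20 (Sema3d), -1.25 ± 0.29 (Sema3e), -1.09 ± 0.26 (Sema3c) and -1.06 ± 0.24 (Sema3a). Sema3d stood at 0.529 and 0.450 fold in heart and at 1.55 and 1.75 in carcass (limma adjusted p = 0.00472). Sema3a stood at 0.583 and 0.390 in heart and at 1.21 and 1.35 in carcass (limma adjusted p = 0.0220). Genes of like GC content had median differences of -0.20 and -0.25 in the same comparison. Sema6a stood at 4.18 and 3.66 in heart and at 7.44 and 6.22 in carcass, a difference of -0.76 ± 0.18 (limma adjusted p = 0.0259). Sema5a and Sema5b differed by -0.80 ± 0.16 and -0.78 ± 0.22. The heart and carcass libraries come from the same 2 embryos. The groups overlapped in none of these 8 genes, which adds nothing to the calls that picked them. Leaving out a heart or carcass library leaves 1 in that group, and no called member then changed sign. Over 17 alternative settings, Sema3d was not called in 1 and Sema5b in 8, the fewest and the most. Unscaled percentages gave 0 higher and 0 lower, against 8.55% and 2.97% of all genes tested.

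Between null hindbrain and null carcass limma called 0 members higher (3.08% of 16295 genes) and 0 lower (1.63%). At an unadjusted p below 0.05 in limma, 4 were higher and 8 lower in hindbrain. No share of all genes was computed at that threshold, so nothing is read from these counts. With the fold centred on the median gene 0 were called higher (1.49% of all genes) and 3 lower (2.33%). The lowest adjusted p-values were those of Sema6a, with a log2 difference of -0.69 ± 0.16 (limma adjusted p = 0.0621), Plxna1, with 0.55 ± 0.13 (0.0629), and Sema3d, with -0.69 ± 0.17 (0.0798). Without the null hindbrain of litter Z, 1 member was called higher (2.50% of all genes tested) and 2 lower (1.59%).

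Of the 30 members with any null peak, mean fold over the genome was highest in carcass for 11, in heart for 8, in hindbrain for 7 and in the liver library for 4. Over the 17469 genes with a null peak the shares were 13.3%, 38.9%, 26.6% and 21.2%. The 8 members known for roles in heart and vessels (Sema3c, Sema3e, Sema6d, Plxna1, Plxna2, Plxnd1, Nrp1 and Nrp2) stood together at 1.67 ± 0.22 fold in null heart, 1.56 ± 0.08 in null hindbrain and 1.86 ± 0.01 in null carcass. Of these 8, Sema3e and Plxna1 were called higher in hindbrain than in heart and none lower, against 10.3% and 19.6% of all genes, and Sema3c and Sema3e were called lower in heart than in carcass, against 5.90%. Nrp1 stood at 2.16 and 1.54 fold in heart and at 1.91, 1.64, 1.34 and 1.21 in hindbrain, and its groups overlap. Plxna2, another plexin of the A family, stood at 0.838 and 0.373 in heart and at 1.02, 0.601, 0.885 and 1.07 in hindbrain, which also overlap.

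A list of 33 partner genes of the pathway was set beside the members, of which 32 were found. It holds co-receptors and adhesion molecules such as Nrcam, Chl1, Kdr and L1cam, and effectors inside the cell such as the collapsin response mediators (Dpysl2 and relatives), the Mical oxidases and small GTPases. Of the 32, all tested, 2 were called higher and 13 lower in null hindbrain against null heart (10.3% and 19.6% of all genes), and 10 higher and 3 lower in null heart against null carcass (19% and 5.90%). The 2 partners higher in hindbrain than in heart were Nrcam (log2 difference 2.01 ± 0.17) and Chl1 (1.34 ± 0.30), adhesion molecules of neurons. Their mean fold over the genome was 1.74 and 0.887 in null hindbrain and 0.243 and 0.205 in null heart, but 2.00 and 1.26 in null carcass. Of the other neuronal adhesion molecules on the list, Cntn2 did not pass (1.17 ± 0.39, limma adjusted p = 0.0616), and L1cam, on chromosome X, stood at 0.902% and 1.13% in null heart and at 0 in all 4 null hindbrain libraries. Partners listed at 0 outside heart entered the fit through heart alone, so nothing is read from their calls. Among the 13 lower ones, Mical2, which oxidises actin, differed by -1.41 ± 0.11 and Kdr, a receptor of vascular endothelial growth factor, by -0.99 ± 0.26. Between null hindbrain and null carcass limma called 0 partners. Leaving out the null heart of litter b left 1 partner higher and 4 lower in hindbrain than in heart, and 3 higher and 1 lower in heart than in carcass. Any other single library left 8 to 10 lower in hindbrain than in heart and 2 to 6 higher in heart than in carcass.

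The fourth question was where in the genes the peaks lie. Exons of the members were covered 1.21 ± 0.05 times as densely as the whole gene body in null hindbrain (SD, n = 4), 1.14 ± 0.07 in null heart and 0.898 ± 0.033 in null carcass (n = 2 each). Over all genes of at least the shortest member's length the same ratio was 1.26 ± 0.02, 1.19 ± 0.05 and 0.979 ± 0.016. When each gene was split into 3 equal parts, the last part of the members was covered 0.886 ± 0.022, 0.790 ± 0.053 and 0.847 ± 0.018 times as densely as the body, against 1.01 ± 0.01, 0.953 ± 0.011 and 0.985 ± 0.003 over all genes. The middle part stood at 1.14 ± 0.05, 1.10 ± 0.01 and 1.14 ± 0.01 in the members and at 0.969 ± 0.007, 0.982 ± 0.004 and 0.987 ± 0.003 over all genes. These sums weigh long genes most, so Sema6d, Sema3a, Sema5a and Plxna4, each over 400 kb, carry much of the member values.

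At the start of the gene the first 1 kb held a peak in 6 of 31 members in null hindbrain, null heart and null carcass alike, against 22.2%, 26.9% and 22.8% of all genes of at least the shortest member's length. The next 3 kb, which have more room for a peak, held one in 18, 22 and 24 members, against 41.5%, 50.1% and 42.3% of those genes. Mean coverage over the members rose from 4.96% in the first 1 kb to 14.1% in the next 3 kb in null hindbrain, from 5.15% to 19.5% in null heart and from 7.85% to 26.8% in null carcass. Over all genes of that length the first 1 kb stood at 4.90%, 7.89% and 7.48% and the next 3 kb at 5.84%, 12.0% and 10.1%. The next 3 kb were covered over 65.0% in Sema4g, 63.3% in Plxna1, 45.0% in Plxnb1, 44.4% in Sema4c and 44.2% in Sema6c in null hindbrain. The first 1 kb of Plxna1, Sema4c and Sema6c held no peak there, and that of Sema4g and Plxnb1 was covered over 2.25% and 7.45%. Sema3a, Sema4b and Sema4f ran the other way, with 43.1%, 55.1% and 11.8% in the first 1 kb and 0.900%, 5.80% and 2.72% after it. No test was made of these differences.

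**Figure D4:**
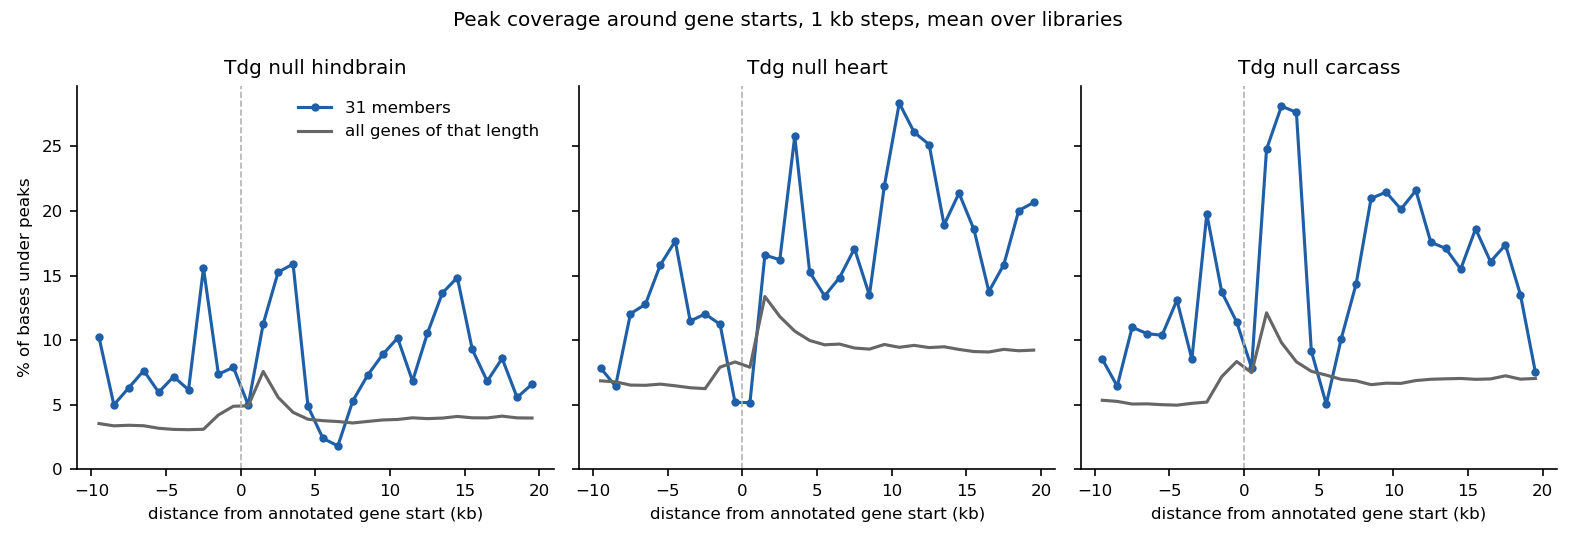
Percentage of bases under peaks in 1 kb steps from 10 kb before to 20 kb after the annotated gene start (horizontal axis) in null hindbrain, heart and carcass, averaged over libraries, for the 31 members and for all protein-coding genes of at least the shortest member's length. The member line stands at 4.96%, 5.15% and 7.85% in the first 1 kb and at 15.9%, 25.8% and 27.6% between 3 and 4 kb, and it reaches similar levels elsewhere, such as 28.4% at 10 to 11 kb in heart.

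The last question was whether the same bases were covered from library to library. In all, 37 stretches in 13 members, 27.3 kb together, lay under peaks in all 9 null libraries, which is 0.690% of the member windows against 0.496% of all gene windows. Without the null heart of litter b, the library whose loss moved it most, the member share was 1.15% and that of all gene windows 0.717%. Of the 37 stretches 33 lay wholly in introns, and 17 also held a peak in at least 1 WT library. The 4 longest were 1700 bp in Plxnb2, 1600 bp in Sema6a, 1200 bp in Plxna4 and 1100 bp in Plxnd1. The Plxna4 stretch spans chr6:32326801-32328000, 211 kb into the gene, with 28 CpGs, and 1 WT library held a peak there. The Plxnd1 stretch spans chr6:115907001-115908100, 37.5 kb into the gene, with 24 CpGs and no WT peak. Nrp2 held the most shared sequence of all members, 5.10 kb, followed by Plxna4 with 3.90 kb.

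Shared stretches were richer in CpG than the rest of the windows. They held 20.3 CpGs per kb and were 50.7% GC. Bases of member windows under a peak in any null library held 13.0 CpGs per kb at 46.2% GC, and bases under no null peak 7.84 per kb at 41.5% GC. Over all gene windows the 3 classes held 21.2, 14.9 and 9.08 CpGs per kb, so the members follow the order of the other genes.

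**Figure D5:**
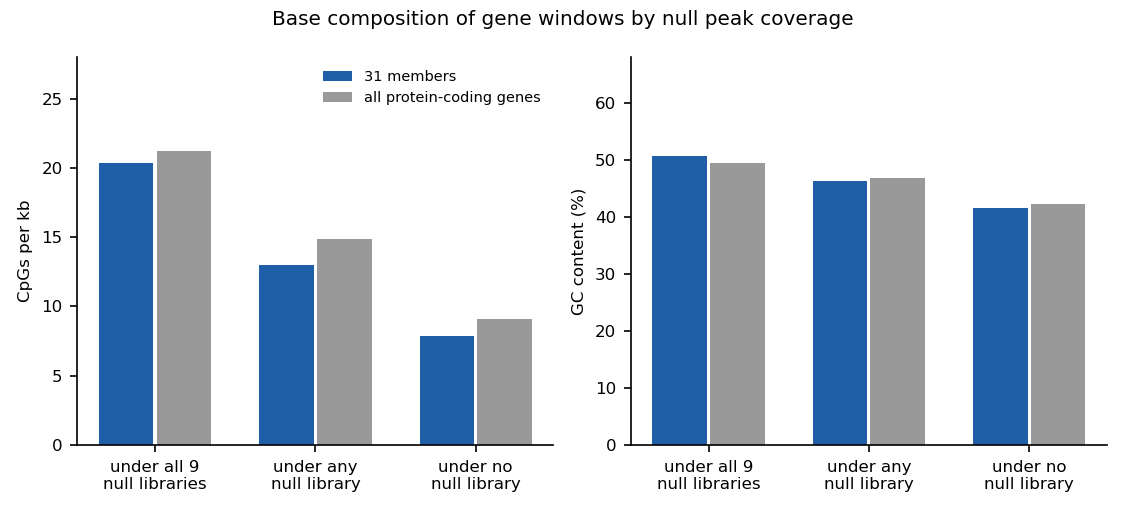
CpGs per kb (left) and GC content in percent (right) of bases under peaks in all 9 null libraries, in any null library and in none, for the 31 member windows and for all protein-coding gene windows. In both sets of genes the bars fall from the shared class to the uncovered class, from 20.3 to 7.84 CpGs per kb in the members.

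Stretches restricted to 1 tissue had to lie under peaks in every null library of that tissue, which are 4 in hindbrain, 2 in heart and in carcass and 1 in liver, so their numbers cannot be set against each other. In hindbrain there were 13 in 6 members, the longest being 600 bp in intron 30 of Plxna4 and 500 bp in intron 2 of Sema6d (chr2:123992901-123993400, 77.4 kb into the gene). In heart there were 174 in 25 members, led by 1600 bp in intron 2 of Sema4b (chr7:87352801-87354400) and 1400 bp in intron 1 of Plxnd1 (chr6:115938901-115940300, 5.42 kb into the gene). Plxna4 held 18.0 kb of heart-restricted sequence, the most of any member. In carcass there were 271 in 23 members, led by 1300 bp in intron 1 of Sema5b (chr16:35598001-35599300) and 1200 bp in intron 15 of Nrp2 (chr1:62837701-62838900). Sema5a, Sema6a and Sema3a held the most carcass-restricted sequence, at 13.0, 10.7 and 10.4 kb. As shares of all gene windows against member windows, these classes covered 0.0767% and 0.0934% for hindbrain, 1.79% and 1.78% for heart and 1.11% and 2.20% for carcass.

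WT embryos, in which TDG is present, held 342 peaks in member windows over the 10 libraries, of which 267 overlapped a peak of a null library of the same tissue. In carcass 79.5% and 83.0% of the WT peaks did so, against 81.1% and 80.8% over all genes. In hindbrain 2 of 3, 16 of 19, 47 of 53 and 4 of 5 WT peaks did so in the order A, O, Q, Z (over all genes 89.6%, 93.2%, 89.4% and 84.7%), in heart 2 of 4 (litter a) and 14 of 14 (litter b), against 57.3% and 84.3%, and in liver, with its single null library, 8 of 27 (litter a) and 0 of 2 (litter b), against 34.3% and 47.7%. The 5 members with a peak in most WT libraries were Sema3d (8 of 10), Sema5b, Plxnc1 and Sema6d (7 each) and Sema5a (6). Sema3a also held one in 6, with fewer WT peaks in all than Sema5a (44 against 46). Sema5b was the one member with a peak in all 4 WT hindbrain libraries. Plxnc1, the receptor of Sema7a, stood at 0, 0.450%, 0.450% and 0.386% in WT hindbrain and at 2.19% and 1.86% in WT carcass. Sema3d stood at 1.06% and 1.16% in WT carcass and Sema5a at 2.56% and 2.07%. Long windows have more room for a peak, and the 5 range from 126 to 580 kb.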

How the data were processed

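Members and gene lists were chosen with earlier results of these data known. Per the labels and methods, the authors enriched 5fC-bearing fragments with a cleavable biotin probe, sequenced them in pairs, trimmed them with Trim Galore, aligned them to NCBIM37 (mm9) with Bowtie2 and called peaks per pull-down with MACS. The deposited values are peak intervals on a 100 bp grid, with no counts, so depth is unknown. Sequences and gene models came from the NCBIM37 genome and GENCODE vM1.

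Coverage was computed with Python 3.11.15 and tested with limma 3.58.1 in R 4.3.3, with an adjusted p threshold of 0.05, tested on simulated data. Named were the 6 highest and 3 lowest members in null hindbrain, up to 8 called members per direction, 5 members by WT libraries and the longest stretches. Each litter gave 1 WT and 1 null embryo. Deviations of same-litter hindbrain pairs correlated across genes at 0.064, 0.016, -0.042 and -0.044. Heart, carcass and liver share embryos, which the tissue fits ignore. Alternatives varied scaling, pseudocount, filter, window, peaks, measure, chromosomes, samples, block and replicates.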

Additional observations from a re-analysis of the deposited data

Results flagged for a closer look

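Each hindbrain group holds 4 libraries, and the values of every member in both groups, with the summed level of the members, were tested for a single library far from the other 3 by Dixon's criterion wherever the 4 values were not all equal. It was met in 13 of 52 such sets. Chance gives about 1 in 20 for values that vary freely, a rate that does not hold for the 7 of the 13 in which the other 3 libraries were all at 0. In null hindbrain Plxna3 was at 3.97% and Sema3b at 13.3% in litter Z, both at 0 in the other libraries. Nrp1 was at 6.87% in litter A, above the others. Sema3d was at 2.50% and Sema4d at 9.10% in litter O, below the other null libraries. In WT hindbrain 5 members held a peak in litter Q alone, with Sema3g at 4.14%, Sema3e at 0.5998%, Plxna4 at 0.359%, Sema3c at 0.253% and Plxna2 at 0.100%. Sema3d was at 0.674% and Sema5a at 0.397% in litter Q, above the others, and Plxnc1 was at 0 in litter A. Litter O held the fewest null hindbrain peaks (104110) and litter Q the most WT hindbrain peaks (21606).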

How the results depend on the processing

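Of the called differences given for single members, 3 changed sign: Plxna1 between null hindbrain and null heart was -0.037 on the percentage without scaling, and with the fold over the genome Sema5b between null and WT hindbrain was -1.91 and Nrp1 between null and WT carcass -0.21. That scale gave 16, 16 and 12 members higher in null hindbrain, heart and carcass (62.3%, 73.9% and 41.9% of all genes tested) and turned the sign of 1, 2 and 8 of the members called on the percentage. Litter as a replicate block gave 28, 27 and 23 (86.0%, 93.4% and 65.7% of all genes tested) and changed no such count by more than 1.5 times. No block could be fitted in liver. In liver a pseudocount 4 times larger gave 10 called members (33.8% of all genes tested), no filter 12 (29.6%) and the fit over 19 libraries 11 (71.3%). Leaving out 1 library gave 27 to 28 calls in hindbrain, 0 to 22 in heart, 0 to 25 in carcass and 1 to 10 in liver, with fewer members tested without a null heart, a null carcass or the WT liver of litter a, and 27 to 29 members in heart without overlap. Between null hindbrain and null heart, peak midpoints gave 2 members higher, no scaling 0 higher and 5 lower, long peaks 1 lower and median centring 0 lower, and leaving out 1 library 1 to 9 higher and 1 to 4 lower. Between null hindbrain and null carcass, no filter gave 1 higher (1.94% of all genes tested) and 1 lower (1.19%). Midpoints gave 1 lower (1.72%) and median centring 3 lower (2.33%). Leaving out 1 hindbrain library gave 0 to 1 higher (1.74% to 2.69%) and 0 to 2 lower (1.20% to 1.85%). Between null heart and null carcass the members higher in heart numbered 2 with a larger pseudocount (21.4% of all genes tested) or with embryo as a random block (19.6%). They numbered 3 with either other window (20.2% without flanks, 19.8% with 5 kb). They numbered 0 without scaling (8.55%), with median centring (8.39%) or with only the 2 tissues (15.7%). Those lower numbered 3 by midpoints (3.59%), 0 without scaling (2.97%) and 2 with only the 2 tissues (4.57%). Leaving out 1 heart or carcass library left 1 in that group, and no called member changed sign. The cause was not tested. The median percentile among genes of similar length was 76.0 in hindbrain, 80 in carcass and 68 in liver by peaks per kb. It was 86.0 and 88.0 in carcass and 72.0 and 70.2 in liver with 100 and 500 neighbours, 75.5 in liver on autosomes, and 74.0, 67.0, 73.0 and 73.5 in hindbrain, heart, carcass and liver with GC content as well. Leaving out 1 library gave 78.5 to 85.5 in hindbrain, 75 to 81.5 in heart and 87.0 to 87.5 in carcass, and the shared percentage of the member windows ran from 0.690 to 1.15. Where an arm was left with 1 library, it was assumed to vary like the other groups in the fit. Unknown depth limits all of these results, and groups of 2 libraries and tissues that share embryos limit those on heart, carcass and liver.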
